A study of Homo sapiens with 4 samples.

Results

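The genes described here are the heat shock transcription factor HSF1 and 9 chaperone genes of the cytosol: HSPA1A, HSPA1B and HSPA8 of the HSP70 family, HSP90AA1 and HSP90AB1 of the HSP90 family, the HSP70 partners HSPH1, DNAJB1 and BAG3, and the small heat shock protein HSPB1. They were taken by symbol, from what the genes are known to encode, with earlier results of these data known. All 10 are among the 56832 genes of the deposited table, and all 10 passed the filter of a mean normalised count of at least 10. They were followed in the established line A375, human melanoma cells listed with genotype WT and grown in DMEM with serum. Cells received 1 mM octanoate, a saturated medium-chain fatty acid, for 48 h, or for the same 48 h the solvent isopropanol as vehicle. Each group has 2 libraries, and the labels do not say whether they came from separate cultures, so the p-values measure only the spread between these libraries, which may be technical.

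Heat shock proteins bind unfolded stretches of other proteins and help them fold, or pass them on for destruction. HSP70 proteins work in cycles of ATP binding and hydrolysis that J-domain proteins start and nucleotide exchange factors end, and many of their clients then move on to HSP90. In unstressed cells the chaperones hold HSF1 inactive. When unfolded proteins occupy them, HSF1 forms trimers, binds heat shock elements (HSE, inverted repeats of the unit nGAAn) and switches on chaperone genes, which makes the RNA of genes such as HSPA1A and DNAJB1 a usual readout of that response.

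Octanoate left the 10 genes without a common direction. Of the 10 genes, 5 passed the test: HSP90AA1 and HSPB1 rose, while HSPA8, DNAJB1 and BAG3 fell. The changes were small, from -0.39 for HSPA8 to 0.31 for HSP90AA1 on the log2 scale. The stress-inducible pair HSPA1A and HSPA1B did not pass the test, nor did HSF1, HSP90AB1 and HSPH1. Among all 20250 tested genes 29.9% were called at a limma adjusted p under 0.05, 16.2% higher and 13.7% lower, and in every comparison below the test is limma with Benjamini-Hochberg adjustment over these genes. Among the 9003 genes with a mean of at least 1000, where all 10 genes lie, 38.1% were called, and the called ones had an absolute log2 difference of 0.27 at the median. Of all called genes 54.1% were higher. Among the 15183 genes found in GENCODE 29 the share was 52.6%, and 42.0% once trends on GC and length had been removed from the same genes, both settings chosen after the data were seen. The median log2 difference was -0.02 over the 10 genes and 0.005 over all tested genes.

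**Figure D1:**
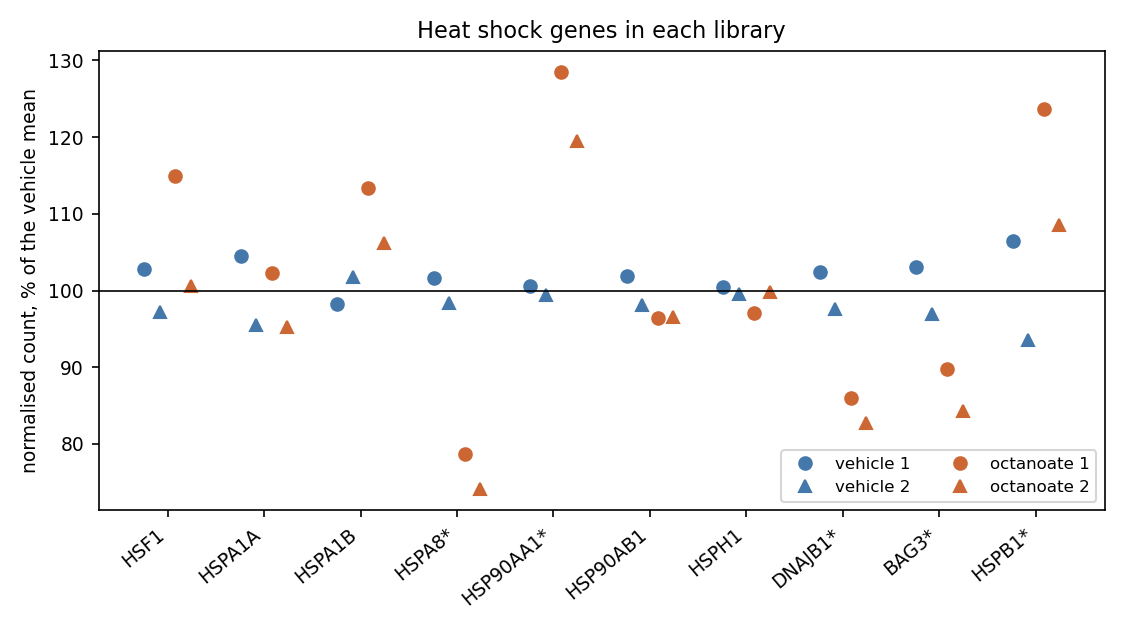
Normalised count of each gene in each library as a percentage of its vehicle mean (horizontal line at 100). Blue marks vehicle and orange octanoate, with circles for libraries 1 and triangles for libraries 2, and an asterisk marks a limma adjusted p under 0.05. Both octanoate points of HSPA8, DNAJB1 and BAG3 lie below both vehicle points, and both of HSP90AA1 and HSPB1 lie above them. The groups are also apart for HSP90AB1 (octanoate below) and HSPA1B (octanoate above), which were not called. Groups were apart for 63.1% of all tested genes.

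Upstream sequences of most, but not all, of the chaperone genes hold matches to heat shock elements. The 250 bases before each RefSeq start (build GRCh38.p14, 14 windows for 9 of the 10 genes) were searched on both strands for 2 HSE units, GAANNTTC or TTCNNGAA, and for 3 units, where GAA and TTC alternate and are again spaced by NN, a longer match that contains the shorter ones. A window with 2 units was found for 7 genes and one with 3 units for HSPA8, HSP90AA1 and HSP90AB1. Counted by window, 7 of the 14 held 2 units and 3 held 3 units, against 11.6% and 0.441% of all 35116 promoter windows. The sequences below show these matches except a further pair of units in the HSP90AA1 window, at -68 from the start, with the GAA and TTC units in capitals. They run 5′ to 3′ on the gene's strand, and stretches inside exons of GENCODE 29 are left out except for short sites.
HSPA8, chr11:123062346-123062374, - strand: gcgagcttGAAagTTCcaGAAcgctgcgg
HSPA8, chr11:123062171-123062199, - strand: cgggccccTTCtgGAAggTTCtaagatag
HSP90AA1, chr14:102087112-102087140, - strand: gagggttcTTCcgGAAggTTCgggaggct
HSP90AB1, chr6:44247693-44247865, + strand: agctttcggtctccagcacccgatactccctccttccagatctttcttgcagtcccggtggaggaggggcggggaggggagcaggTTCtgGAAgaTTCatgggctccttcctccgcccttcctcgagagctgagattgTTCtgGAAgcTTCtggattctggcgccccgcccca
DNAJB1, chr19:14518421-14518647, - strand: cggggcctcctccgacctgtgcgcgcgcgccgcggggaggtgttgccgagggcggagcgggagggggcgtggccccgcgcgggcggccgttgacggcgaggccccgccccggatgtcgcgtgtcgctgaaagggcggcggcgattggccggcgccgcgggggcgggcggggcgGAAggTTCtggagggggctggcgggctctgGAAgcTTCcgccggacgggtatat
HSPA1A, chr6:31815293-31815463, + strand: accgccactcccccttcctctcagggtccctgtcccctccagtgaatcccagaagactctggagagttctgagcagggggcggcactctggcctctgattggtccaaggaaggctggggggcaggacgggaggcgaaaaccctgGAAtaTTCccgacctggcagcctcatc
HSPA1B, chr6:31827488-31827734, + strand: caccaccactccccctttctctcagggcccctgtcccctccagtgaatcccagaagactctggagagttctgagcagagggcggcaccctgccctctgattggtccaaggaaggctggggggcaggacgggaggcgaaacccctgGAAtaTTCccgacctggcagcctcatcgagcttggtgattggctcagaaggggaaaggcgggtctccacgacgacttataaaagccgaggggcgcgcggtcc
HSPB1, chr7:76302483-76302506, + strand: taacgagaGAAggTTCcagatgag

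The HSPA8 window holds 2 stretches of 3 units, the HSP90AA1 window 1 and the HSP90AB1 window 2. DNAJB1 carries 2 separate pairs of units, and HSPA1A and HSPA1B carry the same pair, GAATATTC, in nearly the same surroundings. No match lay in the windows of BAG3 and HSPH1, which says only that these letters are not there. Genes of both directions held matches: of the 3 genes with 3 units HSP90AA1 was called higher, HSPA8 lower and HSP90AB1 not called, and of the 7 genes with 2 units 2 were called higher, 2 lower and 3 not at all. Over all 11325 tested genes with a promoter window 35.8% were called, as were 35.3% of the 1406 with 2 units and 33.9% of the 56 with 3 units.

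HSF1, the transcription factor itself, had 4739 and 4476 normalised counts in vehicle and 5295 and 4637 in octanoate. The groups overlapped, since octanoate 2 lay below vehicle 1. The means were 4608 ± 186 and 4966 ± 465 (SD, n = 2 each), and the log2 difference came to 0.11 with a 95% interval from -0.03 to 0.24 (limma adjusted p 0.241). The log2 difference of HSF1 was 0.01 without octanoate 1 (limma adjusted p 0.951) and 0.20 without octanoate 2 (limma adjusted p 0.0596). HSF1 lies on chromosome 8, and exons of DGAT1 overlap it on the opposite strand, so without the strand setting, which is not given in the sources used here, reads from both cannot be told apart. By Euclidean distance between centred log2 values over the 4 libraries, the genes closest to HSF1 among 8993 with a mean of at least 1000 were NFKBIA, USMG5 and SEC61G, with log2 differences of 0.11, 0.10 and 0.12.

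Of the HSP70 genes, the constitutive HSPA8 (HSC70), which folds new proteins and uncoats clathrin vesicles, showed the largest fall among the 10 genes. It had 209827 and 203237 normalised counts in vehicle and 162426 and 152973 in octanoate. Both octanoate libraries lay far below both vehicle libraries. The means were 206532 ± 4659 and 157699 ± 6684 (SD, n = 2 each), and the log2 difference came to -0.39 (SE 0.07, limma adjusted p 0.000112): HSPA8 fell by 23.7%. HSPA8 lies at chr11:123057489-123063230 on the minus strand (GENCODE 29, GRCh38), and its transcript shares no stretch of at least 100 bases at 95% identity with another gene there. Exons of SNORD14C and SNORD14D overlap exons of HSPA8 on the same strand. The genes closest to HSPA8 by the same distance were FAIM, FASN and FEN1, with log2 differences of -0.40, -0.39 and -0.40. Without an intensity trend in the variance prior the limma adjusted p of HSPA8 was 0.0619, and this setting ended all 5 calls.

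HSPA1A and HSPA1B, neighbouring genes for the stress-inducible HSP70, were far less abundant, and neither passed the test. HSPA1A had 3550 and 3241 normalised counts in vehicle and 3474 and 3233 in octanoate, so that the groups overlapped. Its log2 difference was -0.02 (95% interval -0.15 to 0.12, limma adjusted p 0.873). HSPA1B had 2843 and 2942 normalised counts in vehicle and 3278 and 3071 in octanoate. Here both octanoate libraries were higher than both vehicle libraries, but the log2 difference of 0.13 did not pass the test over all genes (SE 0.06, limma adjusted p 0.114). The 95% interval of HSPA1B, which is not adjusted for the number of genes, ran from 0.004 to 0.263. The transcripts share 2152 bases at 98.61% identity, over 86.7% of the HSPA1A transcript, and both share 929 bases with AL671762.1. Their separate counts are therefore uncertain, and reads that fit both may be missing from each, since the handling of such reads is not given in the sources used here. Summed into 1 gene, they had a log2 difference of 0.05 (limma adjusted p 0.541). HSPA1A lies at chr6:31815464-31817946 and HSPA1B at chr6:31827735-31830255, both on the plus strand. Exons of AL671762.1 overlap HSPA1B on the same strand.

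The HSP90 genes differed from each other. HSP90AA1, the stress-inducible form, rose. It had 270578 and 267320 normalised counts in vehicle and 345684 and 321437 in octanoate, with both octanoate libraries above both vehicle libraries. The means were 268949 ± 2303 and 333561 ± 17145 (SD, n = 2 each), and the log2 difference came to 0.31 (SE 0.07, limma adjusted p 0.00242) or 23.9%. Without octanoate 1 the log2 difference was 0.26 and the limma adjusted p 0.0869. HSP90AB1, the constitutive form, had 193245 and 186154 normalised counts in vehicle and 182968 and 183187 in octanoate. These groups did not overlap either, but the log2 difference was -0.05 (95% interval -0.19 to 0.09, limma adjusted p 0.625). Groups were apart for 7 of the 10 genes and for 63.1% of all tested genes.

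HSP90AA1 lies at chr14:102080738-102139699 on the minus strand, where exons of WDR20 overlap it on the other strand, and HSP90AB1 at chr6:44246166-44253888 on the plus strand. Both have processed copies elsewhere in the genome. HSP90AA1 shares 2199 bases at 97.14% identity with HSP90AA2P, and HSP90AB1 shares 2175 bases at 97.15% with HSP90AB3P. HSP90AA2P itself was not analysed here. The rows of other copies held few counts. HSP90AB3P had between 143 and 168 normalised counts per library, 0.0839% of HSP90AB1, and HSP90AA5P and HSP90AA6P had at most 6.78. Adding the rows of such copies, without HSP90AA2P, to their parent genes left the log2 differences at 0.31 for HSP90AA1 and -0.05 for HSP90AB1. Rows this small could not have moved these values. The refit therefore cannot show whether reads that fit both a copy and its parent were counted.

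The ratio of related genes within a library does not depend on its depth. HSP90AA1 was counted 1.40 and 1.44 times as often as HSP90AB1 in vehicle and 1.89 and 1.75 times as often in octanoate, a 1.28-fold rise of the ratio (log2 0.36). The sum of HSPA1A and HSPA1B was 0.0305 and 0.0304 of HSPA8 in vehicle and 0.0416 and 0.0412 in octanoate. The ratio rose 1.36-fold (log2 0.44). HSPA8 passed the test and the summed pair did not. Reads that fit both HSPA1A and HSPA1B may be missing from the sum, so the ratio need not give their level relative to HSPA8. For both ratios the groups were apart by more than the spread between libraries. The exact two-sided permutation p was 0.333 for each of the 3 ratios examined and 0.333 after Benjamini-Hochberg adjustment, the smallest that 2 libraries against 2 can give.

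**Figure D2:**
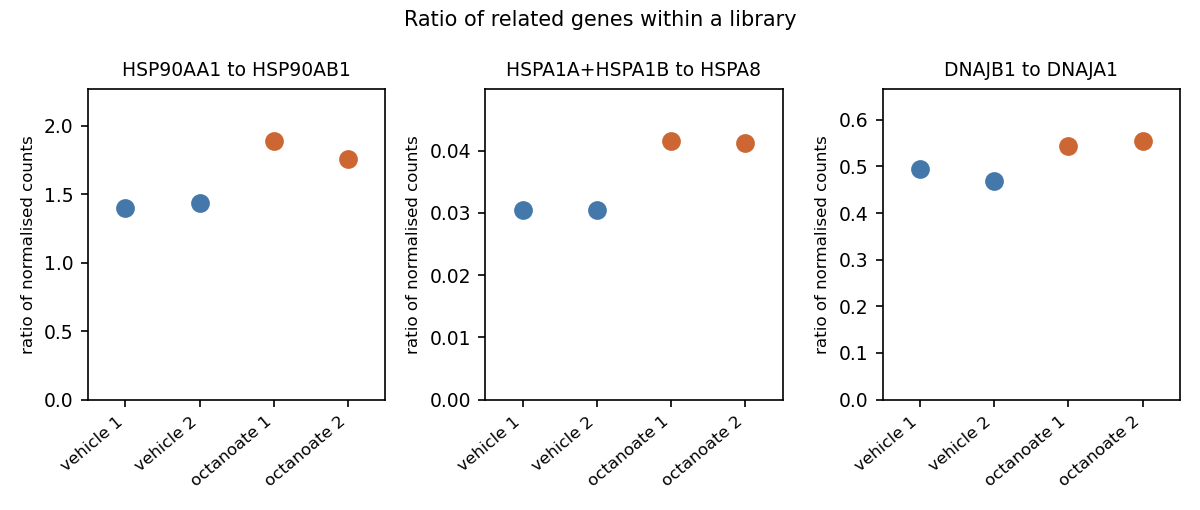
Ratio of normalised counts of related genes in each library (vertical axes from 0, no unit), with vehicle in blue and octanoate in orange. In all 3 panels both octanoate points lie above both vehicle points, from 1.40 and 1.44 to 1.89 and 1.75 for HSP90AA1 to HSP90AB1.

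The partners of HSP70 were lower or near their vehicle levels. DNAJB1 (HSP40), the J-domain protein that hands clients to HSP70 and starts ATP hydrolysis, had 16841 and 16042 normalised counts in vehicle and 14138 and 13601 in octanoate. The octanoate libraries both lay below the vehicle libraries. The log2 difference was -0.25 (SE 0.06, limma adjusted p 0.00183), so DNAJB1 fell by 15.6%. With every gene that had a read in the fit, its limma adjusted p was 0.0513. DNAJB1 lies at chr19:14514770-14529770 on the minus strand and overlaps exons of TECR on the opposite strand.

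BAG3, a nucleotide exchange factor that couples HSP70 clients to autophagy, had 10206 and 9602 normalised counts in vehicle and 8893 and 8350 in octanoate. Its groups were apart as well. The log2 difference was -0.20 (SE 0.06, limma adjusted p 0.0114), a fall by 13.0%. Without vehicle 1 the limma adjusted p of BAG3 was 0.119, and without octanoate 2 it was 0.163. With every gene that had a read, it was 0.124. BAG3 lies at chr10:119651370-119677819 on the plus strand and shares no sequence with another gene at the limits used here.

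HSPH1 (HSP105), an HSP110 protein that serves HSP70 as exchange factor, had 41078 and 40754 normalised counts in vehicle and 39716 and 40820 in octanoate. The groups overlapped, and the log2 difference was -0.02 with a 95% interval from -0.14 to 0.10 (limma adjusted p 0.807). The interval does not reach the -0.39 of HSPA8. HSPH1 lies at chr13:31134974-31162388 on the minus strand.

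HSPB1 (HSP27), which forms large oligomers that hold unfolded proteins without using ATP, had 11990 and 10530 normalised counts in vehicle and 13918 and 12225 in octanoate. Octanoate 2 exceeded vehicle 1 only by a little. The means were 11260 ± 1032 and 13071 ± 1198 (SD, n = 2 each), and the log2 difference came to 0.22 (SE 0.07, limma adjusted p 0.0178) or 16.1%. Without vehicle 2 or without octanoate 1 the log2 difference was 0.12, with limma adjusted p values of 0.242 and 0.290. With every gene that had a read the limma adjusted p was 0.257. After removal of trends on GC and length, the log2 difference was 0.11 (limma adjusted p 0.0475). The GC content of the HSPB1 transcript is 64.5%, the highest of the 10. HSPB1 lies at chr7:76302544-76304295 on the plus strand and shares 256 bases at 97.27% identity with the pseudogene HSPB1P1.

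Levels of different genes were compared per kilobase of transcript, using the longest principal transcript of each gene in GENCODE 29. In vehicle, HSPA8 stood first with 83854 ± 1892 normalised counts per kilobase, ahead of HSP90AA1 with 79594 ± 682 and HSP90AB1 with 70942 ± 1875 (SD, n = 2 each). In octanoate, HSP90AA1 stood first with 98716 ± 5074, ahead of HSP90AB1 with 68466 ± 57.9 and HSPA8 with 64027 ± 2714 (SD, n = 2 each). Per kilobase, HSPA8 was thus first in vehicle and behind both HSP90 genes in octanoate. Without division by length, HSP90AA1 had more normalised counts than HSPA8 in vehicle as well, 268949 against 206532. The first place of HSPA8 in vehicle therefore depends on the transcript lengths used. The other 7 genes kept their order in both groups, which in vehicle ran from HSPB1 with 12387 through HSPH1 with 7882, DNAJB1 with 7262, BAG3 with 3852, HSF1 with 2151 and HSPA1A with 1368 to HSPA1B with 1147 normalised counts per kilobase. No neighbours in either order overlapped over their libraries. The places of HSPA1A and HSPA1B, and of the HSP90 genes against HSPA8, depend on how shared reads were counted. At the limits used here, HSP90AA1 shares 65.1% of its transcript with other genes, HSP90AB1 81.4%, HSPB1 28.1% and HSPA8 0%. The spread between libraries does not show such a difference between genes.

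**Figure D3:**
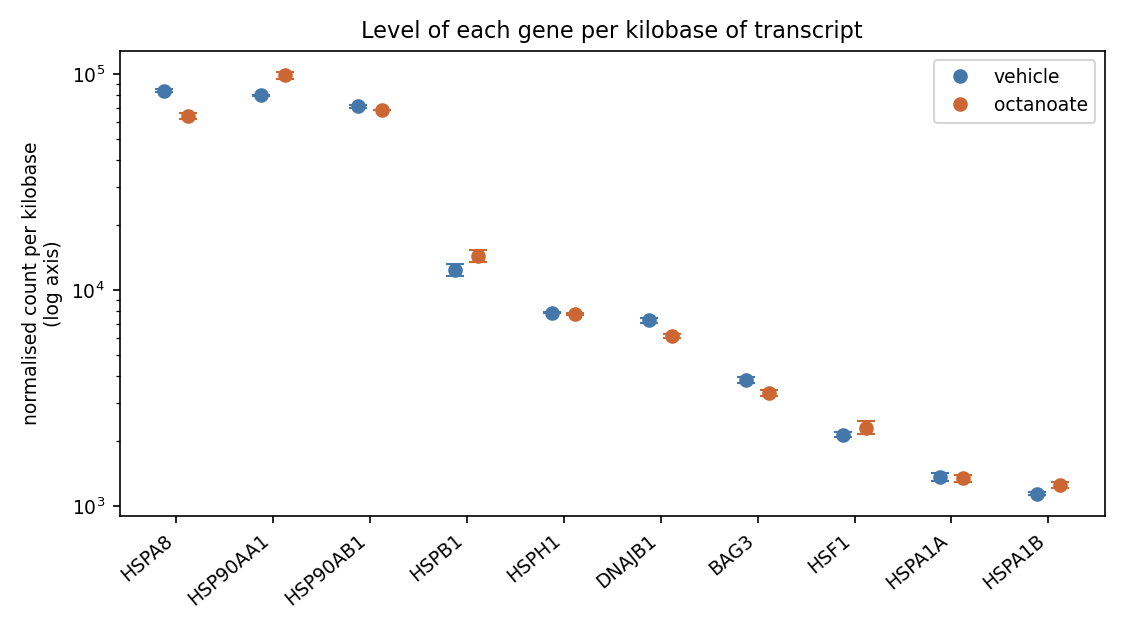
Normalised counts per kilobase of transcript for each gene (log axis), with vehicle in blue and octanoate in orange. Points are means of 2 libraries and bars span their lowest and highest value. HSPA8 is first in vehicle at 83854 and behind both HSP90 genes in octanoate at 64027, while HSP90AA1 goes from 79594 to 98716.

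Seen as families, the 3 HSP70 genes summed to 216220 and 209421 normalised counts in vehicle and 169178 and 159277 in octanoate, 0.772 of the vehicle mean. The HSP90 pair summed to 463822 and 453474 in vehicle and 528653 and 504625 in octanoate, 1.13 times the vehicle mean. The sum over all 10 genes was level, with vehicle at 754597 ± 14564 and octanoate at 761662 ± 25637 (SD, n = 2 each), and the 10 genes held between 1.01% and 1.04% of the reads of every library. These sums follow HSPA8 and HSP90AA1, which make up most of them. In such bulk libraries fewer cells with an RNA and less of it per cell cannot be told apart.

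In the authors' deposited table the same 5 genes had an adjusted p under 0.05, with the same signs. They were among 4329 genes with an adjusted p under 0.05 in the authors' results. The log2 fold change in the authors' deposited table was -0.39 for HSPA8 (adjusted p 8.76e-12), 0.31 for HSP90AA1 (1.56e-07), -0.25 for DNAJB1 (0.000165), -0.20 for BAG3 (0.00848) and 0.22 for HSPB1 (0.0233). For HSF1 the authors' deposited table lists 0.11 (0.338) and for HSPA1B 0.13 (0.190). That table comes from the same 4 libraries and is no separate evidence.

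**Figure D4:**
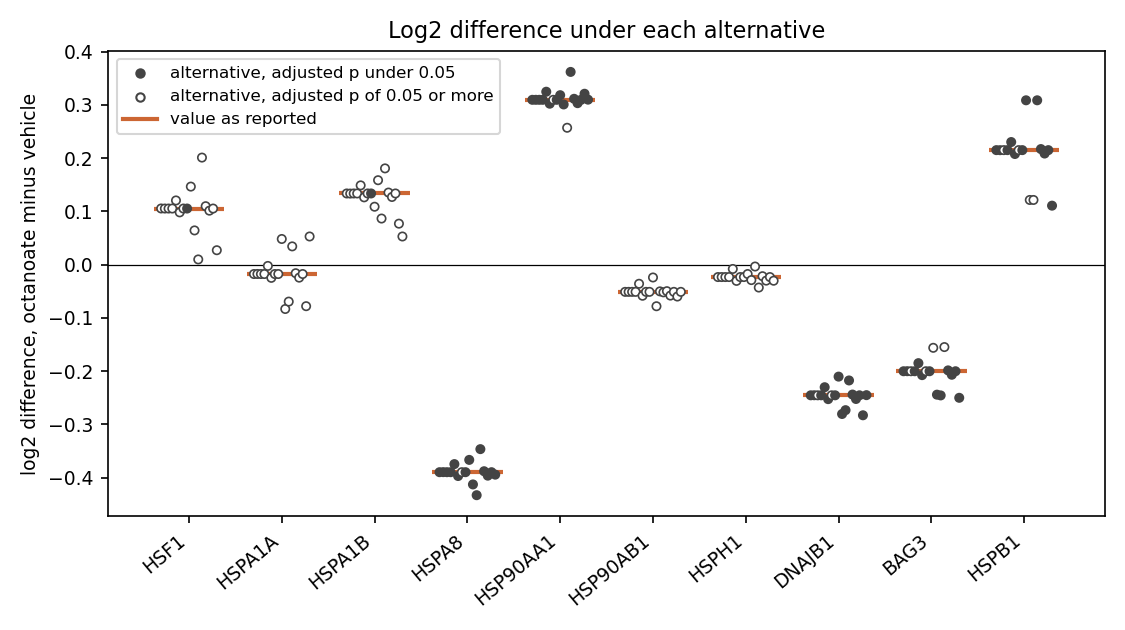
Log2 difference (vertical axis, octanoate minus vehicle) of each of the 10 genes under every alternative setting, with filled points for an adjusted p under 0.05 and open points otherwise. The orange line is the value as reported, for example -0.39 for HSPA8 with alternatives from -0.43 to -0.35.

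The wider chaperone network was described with 8 lists written from general knowledge, with earlier results of these data known. Some genes are in several lists. Of 128 genes in them, the 10 left out, 118 were tested. Called higher were 12 genes (10.2%) and called lower 15 (12.7%), so that 22.9% were called against 29.9% of all tested genes. Most of the list genes have a mean of at least 1000, and 38.1% of all genes at that level were called. Some list counts below are also given for other settings, under which the share of all genes called moved too. It was 45.9% after removal of trends on GC and length, 35.8% for the same genes before it, and 32.5% with equal column totals. The median log2 difference of the list genes was -0.04. HSF2, HSPA13, BAG4, HSPA6, DNAJA2, FAM46A, HDAC6, UBQLN2, CDC37, AHSA1, STIP1, HSF4, CRYAB, CCT4, CCT6B, HSPD1 and HSPE1 are named below after their values were seen, as are the cell type markers.

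**Figure D5:**
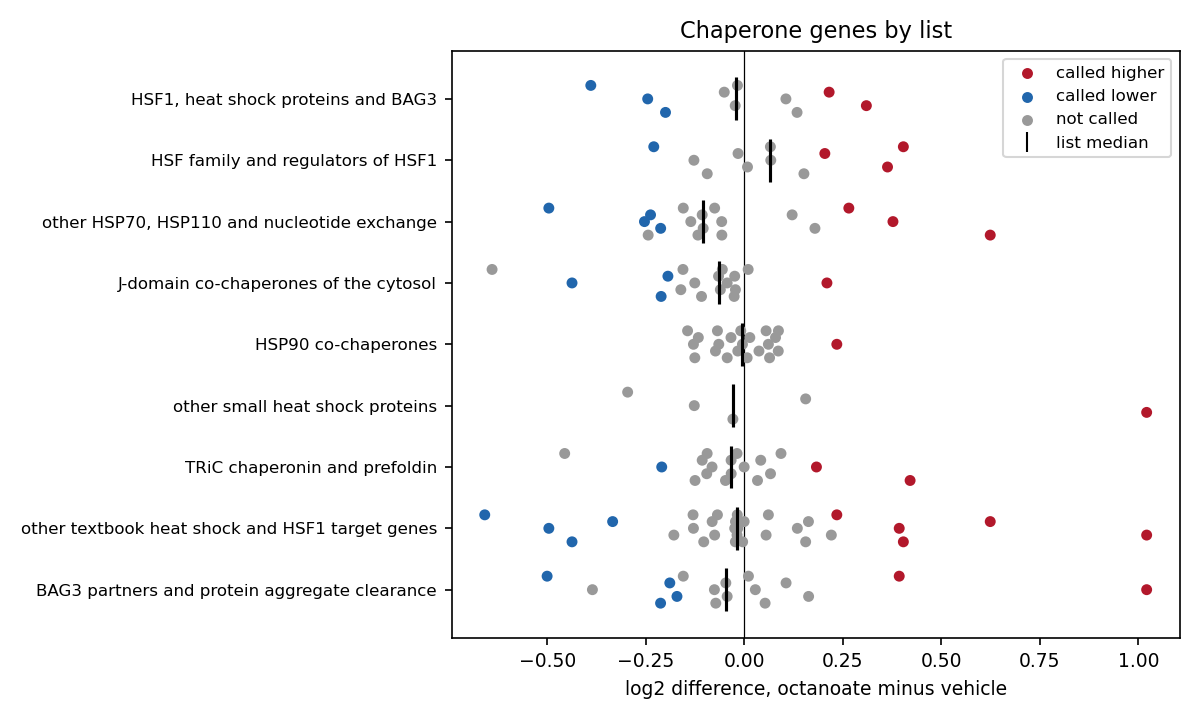
Log2 difference (octanoate minus vehicle, horizontal axis) of every tested gene in each list, red for called higher, blue for called lower and grey for not called, with the list median as a black bar. The medians lie between -0.11 and 0.07, and HSPB8 at 1.02 stands furthest to the right.

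Among the relatives and regulators of HSF1, 3 of 11 tested genes were called higher and 1 lower, with a median of 0.07. IER5 and IER2, immediate early genes whose products help to activate HSF1 by bringing a phosphatase to it, rose by 0.40 (SE 0.06, limma adjusted p 2.71e-05) and 0.36 (SE 0.06, limma adjusted p 7.46e-05). The third was HSF2, the other stress-linked member of the family, at 0.20 (limma adjusted p 0.0215). SIRT1, the deacetylase that prolongs DNA binding by HSF1, fell by 0.23 (limma adjusted p 0.00722). HSF4 had a log2 difference of 0.15 and did not pass the test (limma adjusted p 0.327).

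Other HSP70 proteins and exchange factors were called in both directions, 3 of 18 higher and 4 lower, with a median of -0.11. Of the 7 calls in this list, 2 were left without vehicle 1 and 1 with a variance prior without a trend, and after removal of trends on GC and length there were 11. HSPA4L, an HSP110 relative of HSPH1, rose from 1150 and 1272 normalised counts in vehicle to 1798 and 1935 in octanoate (log2 difference 0.62, SE 0.07, limma adjusted p 4.46e-07). HIP1R, which the list holds although it is a clathrin adaptor protein, rose by 0.38 (limma adjusted p 4.79e-05). HSPA14 and BAG1, an exchange factor with a BAG domain like that of BAG3, fell by 0.24 and 0.25 (limma adjusted p 0.00804 and 0.00859). HSPA13 rose by 0.27 (limma adjusted p 0.00241) and BAG4 fell by 0.21 (limma adjusted p 0.0138). HSPA6, a gene that is nearly silent without heat shock, had 183 and 140 normalised counts in vehicle and 106 and 120 in octanoate (log2 difference -0.50, SE 0.16, limma adjusted p 0.0228). Both octanoate libraries were below both vehicle libraries at this low level.

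Of 17 tested J-domain proteins, 3 were called lower and 1 higher, with a median of -0.07. Without vehicle 1 or without octanoate 2 there were 2 calls, without a trend in the prior 1, with equal column totals 7 and after removal of trends on GC and length 9. DNAJA1, like DNAJB1 a partner of HSPA8, fell from 34044 and 34258 normalised counts in vehicle to 25951 and 24508 in octanoate (log2 difference -0.44, SE 0.06, limma adjusted p 2.31e-06). DNAJC8 fell by 0.21 (limma adjusted p 0.00776), DNAJA2 by 0.19 (limma adjusted p 0.00985). DNAJC6 (auxilin), which recruits HSPA8 to clathrin coats, rose by 0.21 (limma adjusted p 0.0110). As DNAJA1 had the larger difference, the ratio of DNAJB1 to DNAJA1 went from 0.495 and 0.468 in vehicle to 0.545 and 0.555 in octanoate.

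The co-chaperones of HSP90 stayed close to their vehicle levels, and 1 of 22 tested genes (4.55%) was called. It was FKBP4 (FKBP52), the immunophilin of steroid receptor complexes, which rose by 0.23 (SE 0.06, limma adjusted p 0.00231). The others lay between -0.14 and 0.09, among them the HSP90 ATPase activator AHSA1 at -0.07, the kinase adaptor CDC37 at -0.04 and the HSP70 to HSP90 adaptor STIP1 at -0.02. After removal of trends on GC and length 9 of them were called, against 45.9% of all genes in that fit. With equal column totals 4 were called, against 32.5% of all tested genes.

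Of the other small heat shock proteins only 5 of 10 were tested, since the rest had a mean under 10. HSPB8 (HSP22), which forms a complex with BAG3 that sends unfolded proteins to autophagy, rose from 426 and 477 normalised counts in vehicle to 938 and 894 in octanoate (log2 difference 1.02, SE 0.09, limma adjusted p 3.39e-09). Its vehicle and octanoate libraries were far apart, and HSPB8 was the only one of the 5 to pass. CRYAB had between 33.4 and 40.4 normalised counts per library.

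The TRiC ring and prefoldin, which fold actin and tubulin, had 2 of 18 genes called higher and 1 lower, with a median of -0.03. Without vehicle 1 or without octanoate 1 there was 1 call, and without a trend in the prior 0. All of the calls were for prefoldin subunits: PFDN2 rose by 0.42 (limma adjusted p 4.39e-06) and PFDN4 by 0.18 (limma adjusted p 0.0281), and PFDN1 fell by 0.21 (limma adjusted p 0.0121). None of the 9 TRiC subunit genes passed the test, with log2 differences from -0.46 for the scarce CCT6B to 0.00 for CCT4.

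Of 30 tested other textbook heat shock genes, 5 were called higher and 4 lower, with a median of -0.02. Besides HSPB8, HSPA4L, FKBP4 and IER5, the called genes included SQSTM1. SERPINH1 (HSP47), the collagen chaperone of the ER, fell the most, from 11485 and 10302 normalised counts in vehicle to 7097 and 6687 in octanoate (log2 difference -0.66, SE 0.06, limma adjusted p 1.07e-08). FAM46A fell by 0.33 (limma adjusted p 0.000477), and the other 2 lower genes were DNAJA1 and HSPA6. HSPD1 and HSPE1, which encode the mitochondrial HSP60 and HSP10, had log2 differences of -0.02 and -0.004 (limma adjusted p 0.865 and 0.969).

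Among the partners of BAG3 in clearing protein aggregates, 2 of 17 genes were called higher and 4 lower, with a median of -0.05. Without octanoate 2 there were 3 calls, and without a trend in the prior 2. HSPB8 and the autophagy receptor SQSTM1 (p62) rose, SQSTM1 from 17099 and 16405 to 22791 and 21226 normalised counts (log2 difference 0.39, SE 0.06, limma adjusted p 1.16e-05), while BAG3 itself fell. SYNPO (synaptopodin) fell by 0.50 (limma adjusted p 6.50e-07), and the segregase VCP (p97) by 0.21 (limma adjusted p 0.00710). The deacetylase HDAC6, which carries aggregates along microtubules, fell by 0.19 (limma adjusted p 0.0374) and the ubiquilin UBQLN2 by 0.17 (limma adjusted p 0.0312).

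The libraries themselves were alike in depth, with 67785956 to 78005035 recovered reads, so each of the 10 genes rested on at least 2834 reads in every library and depth limits their precision little. Libraries of 1 group differed beyond sampling noise, with a chi-square per degree of freedom of 4.77 for vehicle and 6.5 for octanoate, and were kept apart. Of 9 melanocyte lineage markers, 8 were tested: S100B (-1.12, limma adjusted p 9.15e-12) and MITF (-0.48, limma adjusted p 2.33e-06) were called lower and PMEL higher (0.55, limma adjusted p 0.0289). Most counts of that list were SOX10, with 34072 to 41363 per library, while MLANA and TYR were at most 52.0 and PMEL at most 98.2. Fibroblast markers summed to between 1128 and 1353, with COL1A1 (-0.69) and COL1A2 (-0.99) called lower of 6 tested, and epithelial markers to between 14412 and 17701, with 0 of 4 called and KRT18 the most counted. Markers of immune cells summed to at most 37.3 normalised counts per library and those of endothelial cells to between 576 and 792. PECAM1 and VWF of the latter list were called higher. No marker was at 0 in every library, and the part of these markers in the results above was not tested.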

How the data were processed

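RNA was sequenced from A375 cells in 4 libraries, 2 per group. Per the labels' protocols, RNA was extracted with a Zymo kit and libraries were made with the NEBNext Ultra kit. Per the submitters' processing notes, bcl2fastq 2.17, Trim Galore, STAR 2.4, Picard, HTSeq 0.9.1 and DESeq2 were used with build hg38; options, annotation and strand setting are not given in the sources used here. The deposited signal is a read count per gene divided by 1 size factor per library, per the file's name and the values, and 100% of values were whole multiples of 1 read (tolerance 0.001). The authors' deposited table adds a log2 fold change, a test score, a p-value and an adjusted p-value.

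Because the values are normalised, limma 3.58.1 in R 4.3.3 was fitted on log2(normalised count + 1) over 20250 genes with a mean of at least 10, with an intensity trend, treatment as the only term, two-sided tests and Benjamini-Hochberg adjustment. Calls needed an adjusted p under 0.05, and each log2 difference is octanoate minus vehicle on this scale. The members and lists were chosen with earlier results of these data known. Named were the 10 genes, the 2 called genes with the smallest p in each direction of each list, and the 3 genes nearest to HSF1 and to the member with the smallest p. Genes listed as such in the text were named after their values were seen. edgeR 4.0.16 and DESeq2 1.42.0 on recovered reads (6480 and 4947 genes called, against 6048) were alternatives, beside other pseudocounts, filters and scalings, a replicate block and leaving out each library. Transcripts were compared with blastn 2.17.0 against GENCODE 29 (at least 95% identity over 100 bases). Promoter sequences are from RefSeq (GRCh38.p14) and held 9 of the 10 genes. In simulated counts with 200 genes changed, limma recovered 24% of changes of 0.25 and 44% of changes of 0.5 over all 20250 genes, with 1 false call among 113. In the data 6048 genes were called, and the 10 genes have means of at least 1000. The simulated shares therefore do not give the recovery for these 10 genes.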

Additional observations from a re-analysis of the deposited data

How the results depend on the processing

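Of 165 refits of the 10 genes' log2 differences, 147 kept direction and side of the threshold, 13 lost the call, 2 gained it and 3 changed sign, all 3 for HSPA1A, which was not called: 0.053 summed with HSPA1B, and within the range of -0.0832 to 0.0483 over the fits that leave out 1 library, 0.0483 without vehicle 1 and 0.0344 without octanoate 2. HSPA8 kept its call in 15 of 16 refits (log2 -0.43 to -0.35), HSP90AA1 in 15 of 17 (0.26 to 0.36), DNAJB1 in 15 of 17 (-0.28 to -0.21), and BAG3 (-0.25 to -0.15) and HSPB1 (0.11 to 0.31) in 12 of 16 each. HSF1 ranged from 0.01 to 0.20. HSPA1A, HSP90AB1 and HSPH1 passed in none of these refits.

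The setting that changed the calls most was a variance prior without a trend, where the prior degrees of freedom fell from 21.2 to 1.57. It called 0 of the 10 genes higher and 0 lower, 1625 genes in all (1095 higher, 530 lower; 67.4% higher), and 0 genes among HSF1 relatives, 1 among HSP70 and exchange factors, 1 J-domain gene, 0 HSP90 co-chaperones, 0 TRiC and prefoldin genes, 4 textbook heat shock genes and 2 BAG3 partners. With every gene that had a read (prior degrees of freedom 3.45), 1 of the 10 genes was higher (HSP90AA1) and 1 lower (HSPA8), with 2595 genes called (1597 higher, 998 lower), and 2 HSF1 relatives, 2 HSP70 and exchange factors, 1 J-domain gene, 1 TRiC and prefoldin gene and 3 BAG3 partners. With trends on GC content and length removed, 6971 of 15183 genes were called (45.9%), against 5441 (35.8%) of the same genes before removal. Called in the lists were 11 HSP70 and exchange factors, 9 J-domain genes, 9 HSP90 co-chaperones and 2 small heat shock proteins. The share of higher calls was 42.0%, against 52.6% for these 15183 genes before removal and 54.1% as reported. Only 75.0% of tested genes have a GC content, so over all genes this check is void, against 99.2% of the list genes. Equal column totals called 6582 genes in all (32.5% of those tested), among them 7 J-domain genes and 4 HSP90 co-chaperones. HSP90 co-chaperones called numbered 2 with a filter at a mean of 50 and 3 with either edgeR or DESeq2 on recovered reads.

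The replicate numbers are not explained by the labels. Deviations of same-numbered libraries had a Pearson r of 0.39 across 9003 genes, over 2 pairs, too few to say that the numbers pair the libraries. Adding a replicate block gave 8376 calls, and HSF1 (adjusted p 0.0433) and HSPA1B (0.0174) were called higher too, making 4 higher; 11 HSP70 and exchange factors, 8 J-domain genes, 5 HSP90 co-chaperones, 2 small heat shock proteins, 5 TRiC and prefoldin genes and 16 textbook heat shock genes were then called.

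With 1 library left out, the lone library of a group is assumed to vary like the other group. The 10 genes then gave 0 (without octanoate 1) to 2 higher and 2 to 3 lower calls, and all genes 4382 to 4878 calls, 2473 to 2878 higher and 1600 (without vehicle 1) to 2396 lower, with 50.9% to 64.3% of calls higher. The lists gave 3 to 4 calls for HSF1 relatives, 2 (without vehicle 1) to 9 for HSP70 and exchange factors, 2 (without vehicle 1 or octanoate 2) to 4 for J-domain genes, 1 for HSP90 co-chaperones, 1 for small heat shock proteins, 1 (without vehicle 1 or octanoate 1) to 3 for TRiC and prefoldin, 8 to 9 for textbook heat shock genes and 3 (without octanoate 2) to 6 for BAG3 partners. The ratio changes were 0.31 to 0.41 for HSP90AA1 to HSP90AB1, 0.44 to 0.45 for the HSPA1A and HSPA1B sum to HSPA8 and 0.15 to 0.23 for DNAJB1 to DNAJA1.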
